A study of Homo sapiens with 6 samples.

Results

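The genes described here are SRF, its coactivators MKL1 and MKL2, and 7 genes of the actin cytoskeleton that are known targets of these factors, namely ACTB, ACTG1, VCL, TAGLN, TPM1, MYL9 and CNN2. They were chosen by name, with earlier results of these data known, and all 10 were found among the 23686 genes in the files. All 10 also passed the filter on low counts, which left 14582 genes for testing. The samples were GFP-positive HEK293 cells, an established human embryonic kidney line, and every sample carried the genotype GFP+. For the co-culture group, 3 samples spent 10 h beside ROS-producing HEK293 cells labelled +DAAO. DAAO commonly stands for D-amino acid oxidase, whose reaction with D-amino acids such as D-alanine yields hydrogen peroxide. The medium held 25 µM D-alanine, and the GFP-positive cells were then recovered by flow sorting. The control group held 3 samples of sorted GFP-positive cells that the titles call wild type (Wt controls). The labels attach the same treatment text to all 6 samples, so whether the controls had partner cells or D-alanine is not stated. Nothing in the labels says that the 3 samples of a group came from separate cultures, so p-values measure the spread between these samples, which may be technical. The comparison sets GFP-positive cells from co-culture with ROS-producing cells beside these controls. Parts played by reactive oxygen species (ROS), by partner cells and by D-alanine cannot be told apart.

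SRF is a transcription factor that binds a short DNA element, the CArG box, in front of many cytoskeletal and growth-induced genes. MKL1 and MKL2 (now named MRTFA and MRTFB) bind monomeric actin through their N-terminal part and stay in the cytoplasm while monomers are plentiful. When actin is driven into filaments, they are released, enter the nucleus and activate SRF on genes for actin, actin-binding and adhesion proteins. The other route to SRF runs through ERK and the ternary complex factors ELK1, ELK3 and ELK4, and it serves immediate-early genes such as FOS and EGR1.

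The promoters of 7 of the 10 genes were available in RefSeq's sequence table (GRCh38.p14), as windows around annotated starts that each run from 250 bases before to 50 bases after. There were 2 windows for SRF, 3 for MKL1, 4 for MKL2 and 1 for each other gene. The genes with no entry are ACTB, TAGLN and MYL9. The windows were searched for the CArG box, which is CC, then 6 letters that are each A or T, then GG, and which reads alike on both strands. Such a box was found in 3 of the 7 genes, SRF, ACTG1 and CNN2. Over the whole table, 438 of 27305 genes (1.6%) had a box in at least 1 window, and 454 of 35116 windows (1.29%) held one. The 250 bases before the start are shown for these 3 genes and for VCL, the member whose level changed, to set them side by side. They run 5′ to 3′ on the strand of the gene, with CArG boxes in capitals. The SRF stretch (chr6:43171019-43171268, plus strand) has 2 boxes that begin 30 and 10 bases before the start, the ACTG1 stretch (chr17:81512800-81513049, minus strand) has 1 that begins 94 bases before it, and the CNN2 stretch (chr19:1026358-1026607, plus strand) has 1 that begins 89 bases before it. The VCL stretch (chr10:73997866-73998115, plus strand) has 0 exact matches, which says only that these letters are not in this window.
SRF: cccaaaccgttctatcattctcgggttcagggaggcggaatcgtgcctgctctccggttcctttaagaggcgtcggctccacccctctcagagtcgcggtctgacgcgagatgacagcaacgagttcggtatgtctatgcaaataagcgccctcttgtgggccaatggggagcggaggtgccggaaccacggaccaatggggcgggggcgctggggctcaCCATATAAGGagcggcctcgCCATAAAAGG
ACTG1: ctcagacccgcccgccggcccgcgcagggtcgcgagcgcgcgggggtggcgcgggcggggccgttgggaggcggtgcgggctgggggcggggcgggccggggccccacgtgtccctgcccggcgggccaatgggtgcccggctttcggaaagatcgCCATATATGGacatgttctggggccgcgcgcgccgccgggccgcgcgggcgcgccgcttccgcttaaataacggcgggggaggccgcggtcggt
CNN2: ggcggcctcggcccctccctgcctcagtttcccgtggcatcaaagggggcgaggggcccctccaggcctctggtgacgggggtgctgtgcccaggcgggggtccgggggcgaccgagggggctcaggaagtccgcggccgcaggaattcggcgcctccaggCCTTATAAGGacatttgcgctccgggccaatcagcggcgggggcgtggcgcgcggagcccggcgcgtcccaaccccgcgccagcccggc
VCL: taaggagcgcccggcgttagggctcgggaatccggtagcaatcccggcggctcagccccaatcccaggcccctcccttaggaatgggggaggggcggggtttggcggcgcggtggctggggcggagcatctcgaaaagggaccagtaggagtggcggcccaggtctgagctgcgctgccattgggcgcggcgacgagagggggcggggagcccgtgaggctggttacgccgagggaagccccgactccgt

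Libraries held 19091085 to 36250314 gene-assigned reads, so that 1 read was worth 0.0279 to 0.0522 CPM (reads scaled to library size, with trimmed-mean factors). Changes are given on the log2 scale as co-culture minus control. All tests compare 3 with 3 libraries, where an exact permutation test of a single gene cannot give a p below 0.1, so the adjusted p-values come from the model across genes. The line carried its defining transcripts: the 8 HEK293 markers (PAX2, LHX1, NEFM, NEFL, INA, KRT8, KRT18 and VIM) summed to 1771 to 1840 CPM in the controls and 2144 to 2361 CPM in co-culture, none was at 0, and 2 of the 8, VIM and INA, were higher in co-culture by edgeR's test. Their part in the results was not tested. The 6 fibroblast markers summed to 46.8 to 55.5 CPM in the controls and 50.8 to 55.6 CPM in co-culture, with 1 of the 3 tested passing, LUM, which was lower. INA kept its call in 8 of 13 other settings and LUM in 7 of 13. Both lost it when control 2 or either of co-culture libraries 1 and 2 was left out. They also lost it with strand class in the model and with the replicate number as a block (edgeR adjusted p 0.0642 and 0.0567 with the block). LUM lost it without co-culture library 3 too. The 3 blood markers summed to at most 1.96 CPM and the 3 endothelial markers to at most 0.615 CPM in any library. CD3E was at 0 reads, and PTPRC, PECAM1, CDH5 and COL1A2 had between 2 and 9 reads over all libraries. Co-culture libraries 2 and 3 stood apart in the share of reads on the unexpected strand of each gene, with medians of 0.124% and 0.211% over highly expressed genes, against 1.57% to 1.75% in co-culture library 1 and the controls. In a fit that includes this strand class as a term, the difference between the groups is read from co-culture library 1 and the controls alone. That fit called 0.199% of all tested genes. Without control 1 the share rose to 20.8%, or 3069 genes.

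VCL was the member that changed between the groups. VCL encodes vinculin, which links talin and the cadherin-catenin complex to actin filaments at cell adhesions. It rose in co-culture, where its mean was 292 ± 1.38 CPM, against 226 ± 6.40 CPM in the controls (SD, n = 3 each), and the ratio of the means was 1.29. SRF, MKL1, MKL2, ACTB, ACTG1, TAGLN, TPM1, MYL9 and CNN2 did not pass the test, and 0 of the 10 genes were lower at an adjusted p under 0.05. In edgeR's quasi-likelihood test with Benjamini-Hochberg adjustment, 4.83% of all 14582 tested genes passed (704 genes), 2.66% higher and 2.17% lower. At an unadjusted p under 0.05 it was 1 of the 10 members beside 23.2% of all tested genes, and among genes with a mean of at least 20 CPM 5.85% passed the adjusted test. With 1 of 10 members passing, the count is near that background and is no result about the 10 genes as a set. The median log2 change was -0.05 over the 10 genes and 0.00 over all tested genes.

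**Figure D1:**
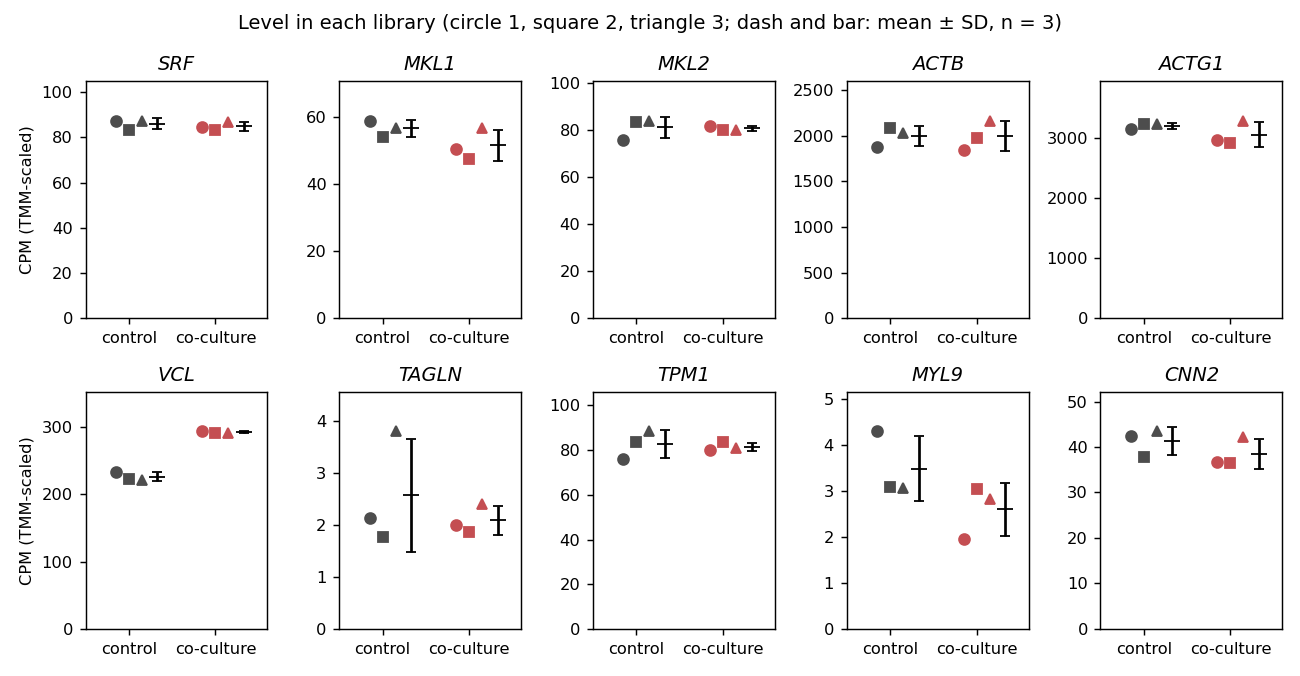
Level of each of the 10 genes in CPM (vertical axes, each from 0) in the 3 control (grey) and 3 co-culture (red) libraries, with mean and SD beside the points. The VCL libraries lie at 222 to 234 CPM in the controls and 291 to 294 CPM in co-culture, while 8 of the other panels show overlapping groups and MYL9 shows groups that do not overlap.

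The VCL reads were 4623, 4283 and 5784 in controls 1, 2 and 3, which are 234, 223 and 222 CPM. In co-culture libraries 1, 2 and 3 they were 5871, 6127 and 10444, which are 294, 291 and 292 CPM. All 3 co-culture libraries were above all 3 controls, and they differed among themselves by less than the controls did. The log2 change was 0.37 (SE 0.06) with an edgeR adjusted p of 0.00666, and the 95% interval of the fold was 1.19 to 1.41. By its p, VCL stood in place 84 of the 14582 genes. Co-culture library 1, which shares its strand class with the controls, had the highest VCL level of the 6.

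VCL was also expressed as ratios of raw reads within a library, which use no scaling between libraries. They use the same VCL reads and 2 members that did not pass the test, so they are no separate evidence. VCL reads per SRF read were 2.67, 2.68 and 2.54 in the controls and 3.47, 3.50 and 3.35 in co-culture. These groups did not overlap, and the means were 2.63 ± 0.0816 and 3.44 ± 0.0769 (SD, n = 3 each). VCL reads per ACTB read were 0.125, 0.107 and 0.109 in the controls and 0.160, 0.147 and 0.135 in co-culture, again with no overlap. Co-culture library 1, with the highest of these ratios, also had the lowest ACTB level and the largest share of multimapping reads. The part of that share in the ratio was not tested.

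The size of the VCL change varied little between settings, while its call did not hold in all of them. Over 13 other settings the log2 change lay between 0.33 and 0.39, and 10 of them kept the call. It was lost without co-culture library 2 (0.37, edgeR adjusted p 0.0637), without control 2 (0.36, edgeR adjusted p 0.0645) and with strand class in the model (0.38, edgeR adjusted p 0.163). Over all 13 settings the adjusted p ran from 2.56e-07 to 0.163.

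**Figure D2:**
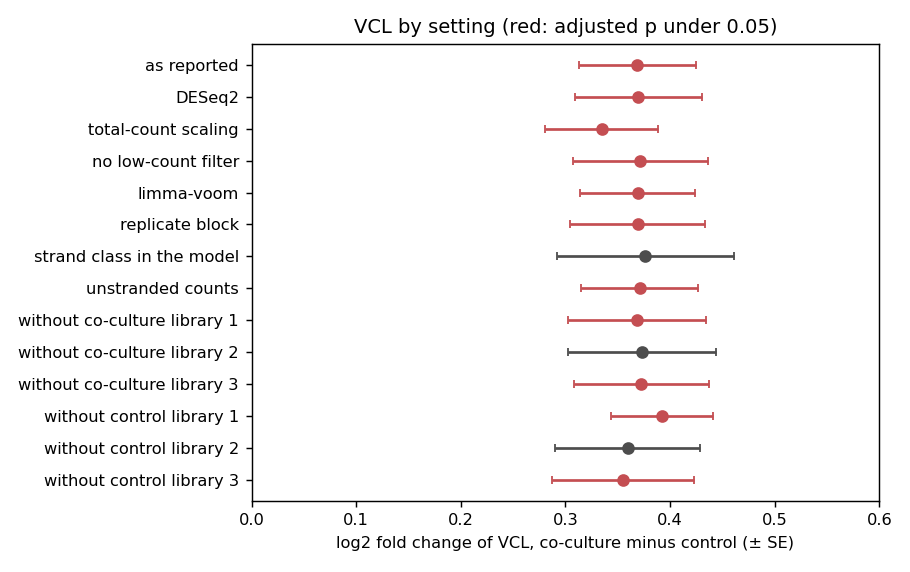
Log2 fold change of VCL, co-culture minus control (horizontal axis, from 0), as reported and in 13 other settings (rows), with points for the estimate and bars for ± 1 SE; red marks an adjusted p under 0.05. All estimates lie between 0.33 and 0.39, and 3 settings are grey.

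SRF itself did not pass the test. Its level was 87.4, 83.3 and 87.5 CPM in controls 1, 2 and 3 and 84.6, 83.2 and 87.0 CPM in co-culture libraries 1, 2 and 3. The groups overlapped over nearly their whole range. The log2 change was -0.02 (SE 0.06, edgeR adjusted p 0.875), and the 95% interval of the fold was 0.905 to 1.08. Each library held 1596 to 3114 SRF reads. Among the 8791 other tested genes with a mean of at least 20 CPM, PHF8, AGPAT1 and SLC41A1 had the profiles over the 6 libraries most like that of SRF. The root mean square distance of their centred log2 CPM from that of SRF was 0.00855, 0.0129 and 0.0145.

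The coactivators also missed the threshold. MKL1 stood at 59.0, 54.1 and 56.9 CPM in the controls and at 50.5, 47.6 and 56.7 CPM in co-culture. Co-culture library 3 lay within the range of the controls, and the other co-culture libraries lay below all of them. For MKL1 the log2 change was -0.13 (SE 0.08, edgeR adjusted p 0.327), with a 95% interval of the fold from 0.810 to 1.03. MKL2 stood at 75.8, 83.5 and 84.0 CPM in the controls and at 81.8, 80.0 and 80.2 CPM in co-culture, so that its co-culture libraries lay inside the range of the controls. Its log2 change was -0.01 (SE 0.06, edgeR adjusted p 0.948), with a 95% interval of the fold from 0.904 to 1.09. MKL2 reads per MKL1 read ran from 1.28 to 1.54 in the controls and from 1.41 to 1.68 in co-culture, which overlap.

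The cytoplasmic actins were by far the most abundant members. ACTB encodes beta-actin and ACTG1 gamma-actin, whose proteins are nearly identical and form the filaments of non-muscle cells. Both genes have many processed pseudogenes. STAR leaves multimapping reads out of gene counts, so their levels and the division of reads between them are uncertain. ACTB stood at 1875, 2081 and 2031 CPM in the controls and at 1839, 1976 and 2167 CPM in co-culture. Its groups overlapped, with a log2 change of 0.00 ± 0.08 (SE; edgeR adjusted p 0.995) and a 95% interval of the fold from 0.886 to 1.13. The sign of this value was not steady, with 6 of 13 other settings on the same side of 0. ACTG1 stood at 3146, 3224 and 3225 CPM in the controls and at 2955, 2912 and 3285 CPM in co-culture. Co-culture library 3 was the highest of the 6 and the other co-culture libraries were the lowest. For ACTG1 the log2 change was -0.07 (SE 0.07, edgeR adjusted p 0.611), with a 95% interval of the fold from 0.854 to 1.07.

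Together the actins took 0.518% to 0.533% of gene-assigned reads in the controls and 0.475% to 0.538% in co-culture. ACTG1 reads per ACTB read were 1.68, 1.55 and 1.59 in the controls and 1.61, 1.47 and 1.52 in co-culture. The ranges overlapped, with means of 1.61 ± 0.0658 and 1.53 ± 0.0679 (SD, n = 3 each). Co-culture library 1 had the largest share of multimapping reads, 8.42% against 6.48% to 7.03% elsewhere, and the lowest ACTB level. The part of that share in the actin levels was not tested. The genes most like ACTB in profile were DDX19B, TUBB4B and WDR61, at root mean square distances of 0.0226, 0.0237 and 0.0237. A related actin gene, ACTBL2, was chosen for mention after its values were seen. It stood at 5.56, 7.77 and 8.67 CPM in the controls and at 12.2, 13.1 and 11.6 CPM in co-culture, with a log2 change of 0.73 ± 0.15 (SE; edgeR adjusted p 0.0255). It kept the call in 7 of 13 other settings, and among leave-one-out fits only without control 1 or control 3. With strand class in the model the value was 0.73 (edgeR adjusted p 0.279). Reads of ACTBL2 could be confused with those of its abundant relatives, so its level is uncertain too.

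TPM1 and CNN2 are actin-binding proteins of moderate abundance here. TPM1 encodes a tropomyosin, which lies along actin filaments and sets which other proteins can bind them. Its level was 76.3, 83.6 and 88.5 CPM in the controls and 80.2, 83.5 and 80.8 CPM in co-culture, within the range of the controls. The log2 change was -0.02 (SE 0.07, edgeR adjusted p 0.869), with a 95% interval of the fold from 0.889 to 1.09. CNN2 encodes a calponin, which binds actin filaments and restrains myosin. It stood at 42.5, 37.8 and 43.5 CPM in the controls and at 36.8, 36.4 and 42.3 CPM in co-culture. The groups overlapped through co-culture library 3, with a log2 change of -0.10 ± 0.08 (SE; edgeR adjusted p 0.522) and a 95% interval of the fold from 0.822 to 1.06.

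TAGLN and MYL9, classical smooth-muscle products of the pathway, were barely present. TAGLN encodes transgelin, which bundles actin, and MYL9 encodes a regulatory light chain of myosin. TAGLN had 42, 34 and 99 reads in the controls and 40, 39 and 86 in co-culture, or 2.12, 1.77 and 3.80 CPM against 2.00, 1.85 and 2.40 CPM. Control 3 was the highest, and the co-culture libraries lay within the range of the controls. For TAGLN the log2 change was -0.31 (SE 0.28, edgeR adjusted p 0.552), with a 95% interval of the fold from 0.523 to 1.25, and without control 3 it was 0.12 (edgeR adjusted p 0.818). MYL9 had 85, 59 and 80 reads in the controls and 39, 64 and 101 in co-culture, or 4.30, 3.08 and 3.07 CPM against 1.95, 3.04 and 2.82 CPM. Its groups did not overlap, by a margin of less than 1 read between control 3 and co-culture library 2. Non-overlap of either kind was seen for 2 of the 10 genes and for 29.3% of all tested genes (14.3% with co-culture higher, as for VCL, and 15% with co-culture lower, as for MYL9). For MYL9 the log2 change was -0.40 (SE 0.22, edgeR adjusted p 0.310), with a 95% interval of the fold from 0.537 to 1.07. With strand class in the model the value was -0.83, and without control 1 it was -0.22, neither past the threshold (edgeR adjusted p 0.356 and 0.467).

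**Figure D3:**
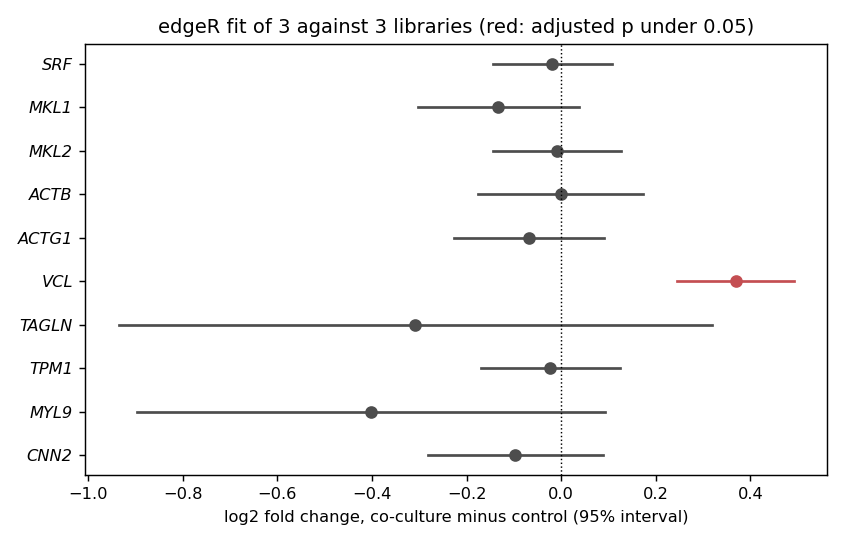
Log2 fold change of each of the 10 genes, co-culture minus control (horizontal axis), with points for edgeR's estimate and lines for the 95% interval; red marks an adjusted p under 0.05. The VCL interval, 0.25 to 0.49, lies above 0, and the intervals of TAGLN and MYL9 are the widest.

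Levels can be compared between genes only per length, and the longest protein-coding transcript of each gene in GENCODE 29 was used for this. In the controls the order in CPM per kilobase was ACTG1 (1418 ± 20.2), ACTB (1039 ± 55.9), VCL (34.9 ± 0.986), TPM1 (20.9 ± 1.55), SRF (20.5 ± 0.576), CNN2 (18.8 ± 1.39), MKL1 (12.6 ± 0.544), MKL2 (9.22 ± 0.521), MYL9 (1.23 ± 0.250) and TAGLN (1.18 ± 0.50), each with SD and n = 3. TPM1 and SRF differed by less than their spread, and so did MYL9 and TAGLN. SRF and CNN2 stood apart by little more than the SD of CNN2. The vinculin transcript, at 45.0 ± 0.213 CPM per kilobase in co-culture, kept its place in the order.

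Other genes of the pathway were read from 9 lists that hold 114 genes, of which 109 were tested. The lists were chosen with earlier results of these data known, so the shares given for them here and below are no independent evidence. Of the 109 genes, 14 were higher and 0 were lower at an adjusted p under 0.05 in edgeR's test, or 12.8% higher beside 2.66% of all tested genes. Among those tested, 36 had an unadjusted p under 0.05, 30 higher and 6 lower, beside 23.2% of all tested genes (1706 higher and 1671 lower). The median log2 change of the 109 genes was 0.07, and that of all tested genes was 0.00. These counts changed with the setting, and so did the share of all tested genes called. The 14 fell to 2 with strand class in the model (0.199% of all called). They fell to 3 without co-culture library 2 and without control 2 (0.503% and 0.44% of all called). Leaving out co-culture library 1 gave 5 (0.831% of all called), and leaving out co-culture library 3 gave 9 (2.18% of all called). Leaving out control 1 gave 33, in a fit that called 20.8% of all tested genes.

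Among 33 other cytoskeletal targets of MRTF and SRF, 6 were higher, 0 were lower and 27 did not pass. The share higher was 18.2%, beside 2.66% of all tested genes. PDLIM7, a scaffold protein on actin stress fibres, rose from 26.0, 23.6 and 24.3 CPM in the controls to 41.5, 40.6 and 40.9 CPM in co-culture. Its log2 change was 0.74 (SE 0.07, edgeR adjusted p 0.000623), and it kept its call in 13 of 13 other settings. ITGA5, the fibronectin-binding integrin subunit, rose from 93.6, 80.7 and 79.4 CPM to 112, 117 and 119 CPM, with a log2 change of 0.46 ± 0.07 (SE; edgeR adjusted p 0.00719). TAGLN2, a widely expressed relative of transgelin, rose from 532, 515 and 555 CPM to 655, 711 and 782 CPM, with a log2 change of 0.42 ± 0.07 (SE; edgeR adjusted p 0.0134). MYH9, the heavy chain of non-muscle myosin IIA, rose from 603, 627 and 686 CPM to 778, 766 and 828 CPM, with a log2 change of 0.31 ± 0.07 (SE; edgeR adjusted p 0.0337). In all of these the groups did not overlap, as was seen with co-culture higher for 14.3% of all tested genes. These genes had passed the test, so this is no separate evidence. CALD1 and CNN3, which are named after their values were seen because they complete the 6, had log2 changes of 0.38 and 0.24 (edgeR adjusted p 0.0176 and 0.0443). FLNA, the filamin that crosslinks actin, stood at 1385, 1540 and 1728 CPM in the controls and 1772, 1849 and 1991 CPM in co-culture, and its log2 change of 0.27 did not pass (SE 0.09, edgeR adjusted p 0.0995). With strand class in the model ITGA5, TAGLN2, MYH9, CALD1 and CNN3 had log2 changes of 0.41, 0.30, 0.29, 0.45 and 0.25 and lost their calls (edgeR adjusted p from 0.164 to 0.324). Without co-culture library 2, and likewise without control 2, 1 of the 33 genes passed. These fits called 0.503% and 0.44% of all tested genes. Without co-culture library 1 the count was 3 (0.831% of all called), and without control 1 it was 12 (20.8% of all called). FLNA passed in DESeq2 and in the fits without control 1 and without control 3.

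The rises in this list include close relatives of members that did not pass. TAGLN2 and TAGLN are transgelins, and CNN3 and CNN2 are calponins. Whether the change of one relative differs from that of the other was not tested. VIM, an intermediate filament gene outside the pathway, was among the genes taken as HEK293 markers. It stood at 925, 998 and 979 CPM in the controls and 1258, 1261 and 1318 CPM in co-culture. Its log2 change was 0.40 (SE 0.06, edgeR adjusted p 0.00793). It kept the call in 10 of 13 other settings and lost it without co-culture library 2, without control 2 and with strand class in the model (edgeR adjusted p 0.0689, 0.0594 and 0.198).

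**Figure D4:**
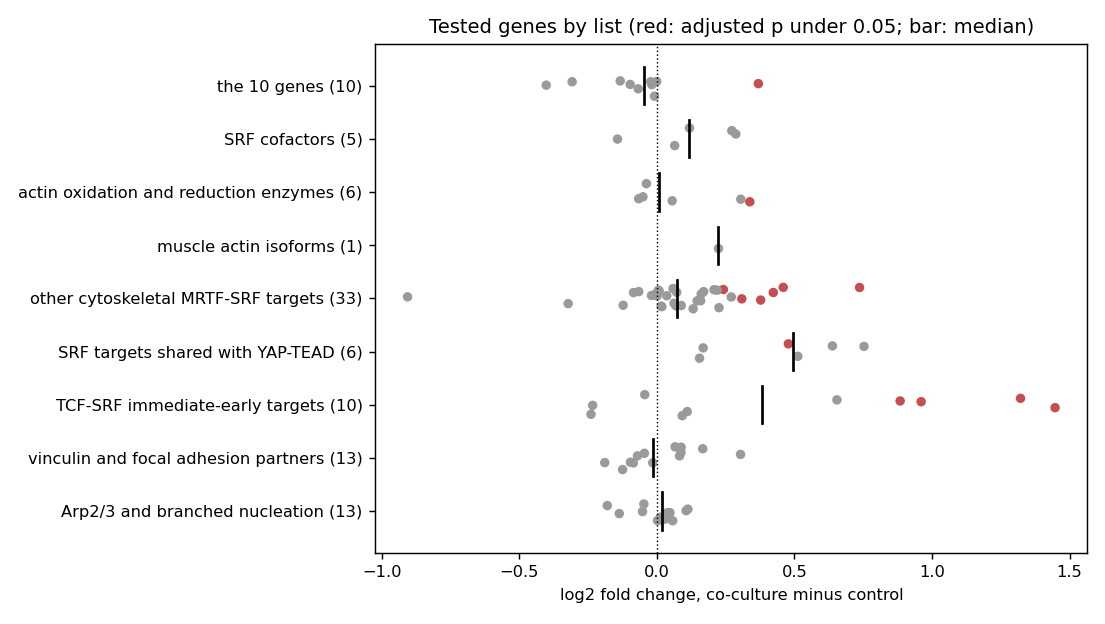
Log2 fold change, co-culture minus control (horizontal axis), of each tested gene in the 10 genes and in 8 of the wider lists (rows, number of tested genes in parentheses; vertical scatter only separates the points); red marks an adjusted p under 0.05 and the bar is the median. All 13 red points lie to the right of 0, and the largest positive values are in the immediate-early list.

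Proteins that sever filaments or bind actin monomers set how much free actin the MRTFs meet. DSTN, which encodes the actin-severing protein destrin, rose from 160, 182 and 173 CPM to 211, 218 and 211 CPM. Its log2 change was 0.31 (SE 0.06, edgeR adjusted p 0.0214), and 7 of 13 other settings kept the call. The call was lost in 4 of the 6 leave-one-out fits, those without co-culture library 1, 2 or 3 or without control 2 (0.30 to 0.35). With strand class in the model (0.30, edgeR adjusted p 0.280) and with the replicate number as a block (0.31, edgeR adjusted p 0.0657) it was lost too. PFN1 and CFL1, the abundant monomer-binding protein profilin and the filament-severing protein cofilin, had log2 changes of 0.13 and 0.03 and did not pass (edgeR adjusted p 0.288 and 0.837). TMSB4X, a monomer-sequestering thymosin singled out after its values were seen, stood at 285, 262 and 234 CPM in the controls and 199, 205 and 227 CPM in co-culture. Its log2 change was -0.31 (SE 0.08), and it missed the threshold (edgeR adjusted p 0.0548). It passed in 5 of 13 other settings, 2 of them the fits without control 1 and without control 3.

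Enzymes that oxidise actin or reverse it form a list of 6, of which 1 was higher and 0 lower. The share higher was 16.7%, beside 2.66% of all tested genes. With 1 gene passing, this is no result about the list, in which 3 log2 changes were above 0 and 3 below. MICAL1, a flavoenzyme that oxidises actin and thereby takes filaments apart, rose from 27.4, 24.8 and 24.9 CPM to 30.8, 33.8 and 32.8 CPM. Its log2 change was 0.34 (SE 0.08, edgeR adjusted p 0.0331), and 6 of 13 other settings kept the call. Among fits that left out a library, only the one without control 1 did so. With strand class in the model the value was 0.26 (edgeR adjusted p 0.383). MICAL3, its more abundant relative, and MSRB3, a methionine sulfoxide reductase, had log2 changes of -0.07 and -0.05 and did not pass (edgeR adjusted p 0.517 and 0.727).

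Of the SRF cofactors, 5 of 6 were tested and 0 passed in edgeR's test as reported or in limma-voom. In DESeq2 1 passed, and in edgeR 2 had an unadjusted p under 0.05, beside 23.2% of all tested genes. Other edgeR settings called 2 with unstranded counts, 2 without control 1, 1 without control 3 and 1 with no low-count filter. These fits called 4.46%, 20.8%, 5% and 4.5% of all tested genes. ELK4 and ELK1, which carry the ERK signal to SRF, had log2 changes of 0.12 and -0.14 (edgeR adjusted p 0.419 and 0.226). MYOCD, the muscle relative of the MRTFs, had too few reads to be tested. Of the muscle actins, ACTA1, ACTC1 and ACTG2 also had too few reads. ACTA2, the smooth-muscle actin, stood at 39.1, 19.1 and 16.2 CPM in the controls and at 27.9, 27.3 and 30.9 CPM in co-culture. Control 1 lay above and the other controls below all co-culture libraries, and the log2 change of 0.22 (SE 0.34) did not pass (edgeR adjusted p 0.749). This result turned on control 1, without which the value was 0.71 (edgeR adjusted p 4.85e-05), while without control 3 it was -0.02 (edgeR adjusted p 0.982). The smooth-muscle markers MYH11, DES, ACTA2, CNN1, LMOD1 and SYNPO2 summed to 25.3 to 53.2 CPM in the controls and 35.9 to 41.3 CPM in co-culture, and 0 of the 5 tested passed.

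Among 10 tested immediate-early genes that SRF controls with ternary complex factors, 4 were higher and 0 were lower. The share higher was 40%, beside 2.66% of all tested genes. Of the 10, 7 had log2 changes above 0 and 3 below. The 3, which lie outside the naming rule, were FOS (-0.23), IER2 (-0.24) and JUNB (-0.04). They did not pass (edgeR adjusted p 0.554, 0.139 and 0.866). IER3 and NR4A1 are an apoptosis modulator and an orphan nuclear receptor that are rapidly induced by growth signals. NR4A1 rose from 10.9, 8.35 and 6.94 CPM to 17.6, 16.5 and 16.5 CPM, with a log2 change of 0.96 ± 0.14 (SE; edgeR adjusted p 0.00669). IER3, which lies outside the naming rule and is given because it completes the 4, had a log2 change of 0.88 (edgeR adjusted p 0.00210) and kept its call in 13 of 13 other settings. FOSB and EGR3 make up the rest, at log2 changes of 1.32 and 1.45 (edgeR adjusted p 0.0154 and 0.0155). FOSB kept its call in 6 of 13 other settings and EGR3 in 7 of 13. FOSB stood at 6.06, 6.57 and 5.33 CPM in the controls and 16.8, 18.6 and 9.86 CPM in co-culture. EGR3 was low, with 33, 28 and 20 reads in the controls and 64, 78 and 125 in co-culture. EGR1 and MCL1, the most abundant of the list, stood at 0.09 and 0.11 and did not pass (edgeR adjusted p 0.847 and 0.313). SRF, which is itself known as an immediate-early gene with CArG boxes in its promoter, is described above. With strand class in the model, NR4A1, FOSB and EGR3 stood at 1.02, 1.49 and 1.33 and lost their calls (edgeR adjusted p from 0.131 to 0.241). Without co-culture library 1 or 2 or control 2, 1 of the 10 genes passed. These fits called 0.831%, 0.503% and 0.44% of all tested genes.

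Of 6 targets that SRF shares with the YAP-TEAD pathway, 1 was higher and 0 lower. The share higher was 16.7%, beside 2.66% of all tested genes. With 1 gene passing, this is no result about the list. Without control 1 the count was 4, in a fit that called 20.8% of all tested genes. In DESeq2, which called 7.08% of all, the count was 3. With unstranded counts (4.46% of all called) or without control 3 (5% of all called) the count was 2. It was 0 with total-count scaling, with the replicate block, with strand class in the model, and when control 2 or any of the co-culture libraries was left out. THBS1, a secreted matrix protein, stood at 9.96, 12.3 and 11.3 CPM in the controls and rose to 13.5, 16.5 and 16.6 CPM, with a log2 change of 0.48 ± 0.12 (SE; edgeR adjusted p 0.0457). It kept its call in 5 of 13 other settings, and with strand class in the model its log2 change was 0.27 (edgeR adjusted p 0.516). CYR61 and CTGF, matricellular proteins now named CCN1 and CCN2, did not pass. CYR61 stood at 43.4, 60.4 and 65.9 CPM in the controls and 82.6, 77.9 and 82.0 CPM in co-culture (log2 change 0.51, SE 0.13, edgeR adjusted p 0.0589). Its groups did not overlap, as was seen with co-culture higher for 14.3% of all tested genes. CTGF stood at 11.4, 22.4 and 29.3 CPM in the controls and 34.98, 31.1 and 33.02 CPM in co-culture (log2 change 0.64, SE 0.32, edgeR adjusted p 0.294).

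Partners of vinculin at adhesions and the machinery of branched filaments form the remaining lists. Of 13 focal adhesion genes, 0 passed in edgeR's test as reported or in limma-voom, 1 passed in DESeq2 and 3 had an unadjusted p under 0.05, a share near the 23.2% of all tested genes, and the median log2 change was -0.02. ENAH, which promotes filament growth at adhesions, stood at 376, 467 and 491 CPM in the controls and 578, 538 and 531 CPM in co-culture (log2 change 0.30, SE 0.09, edgeR adjusted p 0.0866). It passed in DESeq2 and in the fits without control 1 and without control 3. CTNNB1, which encodes beta-catenin, had a log2 change of 0.08 (edgeR adjusted p 0.525). Of 13 genes for the Arp2/3 complex and its activators, 0 passed in edgeR as reported, limma-voom or DESeq2 and 2 had an unadjusted p under 0.05. Without control 1, 3 of the focal adhesion genes and 2 of the Arp2/3 genes passed, beside 20.8% of all genes in that fit, and without control 3 it was 1 of the focal adhesion genes. The median log2 change of the Arp2/3 list was 0.02, and the Arp2/3 subunits ACTR2 and ACTR3 stood at 0.06 and 0.01 (edgeR adjusted p 0.692 and 0.943).

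The CArG boxes shown above can be set beside these changes. SRF, ACTG1 and CNN2, the members with a box in a promoter window, had log2 changes of -0.02, -0.07 and -0.10. Among the tested genes of the wider lists, 96 had a window and 11 of them (11.5%) held a box, against 1.58% of the 11324 tested genes with a window. Of these 11 genes, which include EGR1, FLNA and ACTN1, 0 passed edgeR's test. The share that passed was 12.8% of the 109 tested wider genes and 4.83% of all tested genes. Of the 14 wider genes that were higher, 12 had a window and 0 held a box, beside the 11.5% above. Both counts of 0 are over too few genes to be a result about the boxes. Of all 388 genes that were higher, 304 had a window and 1.97% held a box. Boxes further from the start, in introns or with a changed letter were not searched.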

How the data were processed

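Per the labels' protocols, RNA of 6 samples was extracted with TriPure and made into libraries with an Illumina stranded mRNA kit. Each deposited file lists gene counts that are not normalized, unstranded and for each strand, in the layout of STAR's gene counting. STAR 2.53a, FastQC and build hg18 are named in the submitters' processing notes, and the annotation release is not given in the sources used here. The build of the promoter sequences, GRCh38.p14, differs, so its coordinates belong to those sequences only.

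Reverse-strand counts were used, and the 4 summary lines, 24.2% to 28.5% of reads, were left out. Genes were filtered with filterByExpr (minimum count 10), scaled by TMM and tested in edgeR 4.0.16 (R 4.3.3) with a robust quasi-likelihood F test, group as the only term and a threshold of 0.05. SEs were derived from each log2 change and its F statistic, and 95% intervals use the test's degrees of freedom. Pairs of libraries of the same group differed by a chi-square per degree of freedom of 4.73 to 18.5, so none was a copy of another. Pairs across the groups differed by 13.3 to 23.1, and these ranges overlap. Such values cannot tell whether samples of a group came from separate cultures. The fit was tested on simulated data, where most genes given a 2-fold change were recovered and the share of false calls was above the threshold. Smaller changes, such as that of VCL, were not simulated, so this does not show how often they would be found. Alternatives were DESeq2 1.42.0, total-count scaling, no filter, limma-voom (limma 3.58.1), the replicate number as a block, the strand class, unstranded counts and leaving out each library.

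The 10 genes, the lists, the tests and the alternatives were chosen with earlier results of these data known. Named genes were the 10 members and, per list, up to 3 that passed, by size of change, and the 2 most abundant. Likeness was taken over genes with at least 20 CPM. MKL1 and MKL2 are the symbols in the files. Of the 9 wider lists, 1 enters the total over all lists, and its own result is not reported here.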

Additional observations from a re-analysis of the deposited data

How the results depend on the processing

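The number of the 10 genes past the threshold was 1 as reported and 0 with strand class in the model, and 0 to 1 when a library was left out; in the settings with a count of 1 the gene was VCL. The count over all tested genes, 704, became 164 with the replicate block and 29 with the strand class, and ran from 65 (without control 2) to 3069 (without control 1) when a library was left out. It was 74, 123 and 321 without co-culture libraries 2, 1 and 3. The count over the wider lists, 14, became 7 with the replicate block and 2 with the strand class, and ran from 3 to 33 when a library was left out. DESeq2, total-count scaling, no filter, limma-voom and unstranded counts kept these 3 counts within 1.5 times, at 663 to 1032 genes in all and 13 to 21 in the lists. With total-count scaling 310 genes were higher and 572 lower, against 388 and 316 as reported. Same-numbered libraries deviated from their group means with correlations of -0.10, -0.26 and -0.24 across genes. These deviations are from means of 3 libraries that also differ in strand class. They cannot tell whether the numbers pair the samples. The labels state no pairing, so the fit as reported has none, and the replicate block is a check. Under it VCL stood at 0.37 (edgeR adjusted p 0.0400). No gene named in the text that passed the test as reported changed sign in any of the 13 settings. Of the members that did not pass, SRF, MKL1, ACTG1, MYL9 and CNN2 had log2 changes below 0 in all 13, and MKL2, ACTB, TAGLN and TPM1 took both signs. TAGLN and MYL9 had 34 to 101 reads per library and the widest intervals of the members, and the part of depth in these was not tested.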
